A study of Arabidopsis thaliana with 2 samples.

Results

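The 9 genes described here encode regulators and enzymes of aliphatic glucosinolate synthesis, out of 36632 nuclear genes counted in single nuclei of Arabidopsis thaliana inflorescences. They are MYB28 (AT5G61420), MYB29 (AT5G07690), BCAT4 (AT3G19710), MAM1 (AT5G23010), CYP79F1 (AT1G16410), CYP83A1 (AT4G13770), SUR1 (AT2G20610), UGT74C1 (AT2G31790) and SOT18 (AT1G74090). The genes were chosen by their known roles and with their levels by library and tissue already seen, so the levels given below are a description and carry no test. The study built an atlas of expression domains in young floral meristems.

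Nuclei came from pooled inflorescences of plants that carry the pAP1:AP1-GR transgene with the ap1-1 and cal-1 mutations in the Ler background, taken at day 4 (stage 5 of flower development) or at day 3 (stage 4) of dexamethasone induction. These plants form masses of meristems, and dexamethasone lets the AP1-GR fusion, driven by the AP1 promoter, enter the nucleus and start flower formation in all of them together. Both libraries share the genotype and the dexamethasone, and no uninduced library was analysed here. Dexamethasone was applied each day, and day 4 plants may have had more applications. The days used here are those of the sample titles, whereas the treatment text puts collection on the fourth day in both cases.

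Glucosinolates are sulphur-rich defence compounds of the Brassicales that myrosinase enzymes break down when tissue is damaged. The aliphatic ones start from methionine, whose side chain is lengthened by BCAT4, MAM enzymes and relatives of the leucine synthesis pathway. CYP79F and CYP83A1 monooxygenases, glutathione transferases, the lyase SUR1, UGT74 glucosyltransferases and sulfotransferases such as SOT18 then build the core. MYB28 and MYB29 are transcriptional activators of these genes in Arabidopsis, partly together with MYC2 and its relatives, and reporter genes are known to show the pathway mainly in and around the vasculature of leaves and stems.

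Nuclei with at least 1000 detected nuclear genes numbered 4545 at day 4 and 4397 at day 3, and they held 10202530 unique molecular identifiers (UMIs) of nuclear genes at day 4 and 11083512 at day 3. The median depth was 1805 UMIs per nucleus at day 4 and 1842 at day 3, and 6 barcode sequences occurred in both libraries. Each day is 1 library, so no value has a replicate check, and sequencing platform and numbers of PCR cycles cannot be told apart from the day. Levels are given as CPM, in which the UMIs of a gene are scaled to a common total of UMIs of nuclear genes. The intervals in parentheses are exact 95% intervals that cover counting error only, and they are too narrow where few nuclei hold the UMIs, since UMIs of 1 nucleus are not independent.

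The stretches of 250 bases before the annotated start of 4 members are shown because the members were found in the same nuclei, as described below. They come from RefSeq's annotation of TAIR10.1 (Col-0), whereas the plants were Ler. Capitals mark the G-box CACGTG, the sequence that MYC factors bind, and the AC element ACCNACC, a sequence that many MYB factors bind, each searched on both strands. The stretches lie at chr4:7992430-7992679 on the minus strand (CYP83A1), chr2:8880441-8880690 on the minus strand (SUR1), chr5:24691188-24691437 on the minus strand (MYB28) and chr1:5608432-5608681 on the plus strand (CYP79F1), and none overlaps another annotated gene.
CYP83A1: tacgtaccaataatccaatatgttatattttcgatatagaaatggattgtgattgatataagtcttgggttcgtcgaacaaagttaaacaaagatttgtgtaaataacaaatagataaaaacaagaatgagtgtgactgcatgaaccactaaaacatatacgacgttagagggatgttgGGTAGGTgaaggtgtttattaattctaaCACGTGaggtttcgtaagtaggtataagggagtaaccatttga
SUR1: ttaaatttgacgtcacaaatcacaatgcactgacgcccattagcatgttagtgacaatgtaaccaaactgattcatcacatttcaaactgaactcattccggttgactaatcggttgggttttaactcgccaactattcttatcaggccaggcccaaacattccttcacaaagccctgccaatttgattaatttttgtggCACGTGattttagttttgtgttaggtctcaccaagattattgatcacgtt
MYB28: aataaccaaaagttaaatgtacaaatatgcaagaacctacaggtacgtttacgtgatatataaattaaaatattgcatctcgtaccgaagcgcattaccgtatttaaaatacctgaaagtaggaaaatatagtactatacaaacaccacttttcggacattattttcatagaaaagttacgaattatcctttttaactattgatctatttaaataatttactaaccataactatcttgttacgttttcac
CYP79F1: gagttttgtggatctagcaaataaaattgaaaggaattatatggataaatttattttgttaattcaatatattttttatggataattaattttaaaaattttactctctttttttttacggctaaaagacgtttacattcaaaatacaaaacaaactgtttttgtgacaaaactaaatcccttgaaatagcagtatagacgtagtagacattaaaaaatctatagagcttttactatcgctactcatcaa

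The G-box occurred in 2 of the 9 members, CYP83A1 and SUR1, and in 6.49% of 27443 protein-coding promoters of this length. The AC element occurred in 1 of 9, CYP83A1, and in 6.10% of all these promoters. A match is a description of the letters in this window, and binding was not measured.

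The summed level of the 9 genes was 94.4 (88.5 to 101) CPM from 963 UMIs at day 4 and 97.7 (92.0 to 104) CPM from 1083 UMIs at day 3. The ratio of day 4 over day 3 was 0.966 (0.885 to 1.05). The sum thus differed by less than counting error when scaled to library totals, while single members differed in both directions. On the log2 scale this ratio was -0.05 (-0.18 to 0.08). The interval excluded 0 with TMM factors (-0.14, -0.27 to -0.01), with median-of-ratios factors (-0.15, -0.28 to -0.03) and without the 8% highest doublet scores (-0.21, -0.35 to -0.07), so whether the sum was lower at day 4 depends on these choices. Of 4 members with at least 200 UMIs over both libraries, 1 (MYB28) was at least 1.5-fold higher at day 4, beside 4.36% of 14740 genes of that depth, and 0 were at least 1.5-fold lower, beside 3.3%. The median log2 ratio, with 1 CPM added to both levels, was -0.12 over the 9 members and 0.07 over 24099 detected genes. These log2 ratios understate the differences of low genes.

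MYB28, the main activator of the pathway, was the member with the highest level at day 4 relative to day 3 among those with at least 200 UMIs. It had 210 UMIs in 120 nuclei at day 4, or 20.6 (17.9 to 23.6) CPM, and 139 UMIs in 90 nuclei at day 3, or 12.5 (10.5 to 14.8) CPM. The ratio was 1.64 (1.32 to 2.05), and no nucleus held more than 9 of its UMIs at day 4 or 7 at day 3. The share of nuclei with a MYB28 UMI differed less, at 2.64% (2.19 to 3.15) at day 4, against 2.05% (1.65 to 2.51) at day 3, with a ratio of 1.29 (0.973 to 1.71). MYB29, a second activator, was near the limit of detection with 9 UMIs in 5 nuclei at day 4 and 2 UMIs in 2 nuclei at day 3. MYB76, the closest relative of both, had 0 UMIs in either library. The limit for a count of 0, taken as 3 counts, was 0.294 CPM at day 4 and 0.271 CPM at day 3.

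The early enzymes were rare and sat in few nuclei. BCAT4, the aminotransferase that opens chain elongation, had 13 UMIs in 6 nuclei at day 4 (1.27 CPM) and 24 UMIs in 4 nuclei at day 3 (2.17 CPM). MAM1, a methylthioalkylmalate synthase of chain elongation, had 32 UMIs in 6 nuclei at day 4 (3.14 CPM) and 20 UMIs in 4 nuclei at day 3 (1.80 CPM). CYP79F1, which converts chain-elongated methionine to an aldoxime, had 11 UMIs in 3 nuclei at day 4 (1.08 CPM) and 14 UMIs in 2 nuclei at day 3 (1.26 CPM). Together these 3 genes had 56 UMIs in 12 nuclei at day 4 and 58 UMIs in 8 nuclei at day 3, so their day ratios rest on a handful of nuclei and are not read as a difference. Counts of MAM1 and CYP79F1 are uncertain by gene, because Ler carries MAM2 in place of MAM1 at this locus and CYP79F1 has a near-identical neighbour, CYP79F2. CYP79F2 had 0 UMIs at day 4 and 2 at day 3, and MAM3, the other elongation synthase, had 0 in either library.

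The enzymes of the core were more abundant. CYP83A1, which oxidises the aldoximes, had 94 UMIs in 44 nuclei at day 4, or 9.21 CPM, and 146 UMIs in 54 nuclei at day 3, or 13.2 CPM, with a ratio of 0.699 (0.534 to 0.913). A single day 3 nucleus held 55 of these UMIs, and without the nucleus with the most member UMIs in each library the levels were 7.95 CPM at day 4 and 8.22 CPM at day 3. SUR1, the C-S lyase shared with indole glucosinolates, had 320 UMIs in 256 nuclei at day 4, or 31.4 CPM, and 437 UMIs in 357 nuclei at day 3, or 39.4 CPM, with a ratio of 0.795 (0.687 to 0.921).

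UGT74C1, a glucosyltransferase of the aliphatic branch, had 231 UMIs in 168 nuclei at day 4, or 22.6 CPM, and 233 UMIs in 187 nuclei at day 3, or 21.0 CPM. Its ratio was 1.08 (0.894 to 1.30), within counting error. SOT18, a sulfotransferase of the last core step, had 43 UMIs in 39 nuclei at day 4 and 68 UMIs in 49 nuclei at day 3, with a ratio of 0.687 (0.457 to 1.02). SOT18 is closely similar to SOT17, so reads may be split between them. SUR1 and UGT74C1 were spread thinly over many nuclei, with no more than 7 UMIs in a nucleus at day 4 and 9 at day 3, unlike the genes of chain elongation.

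**Figure D1:**
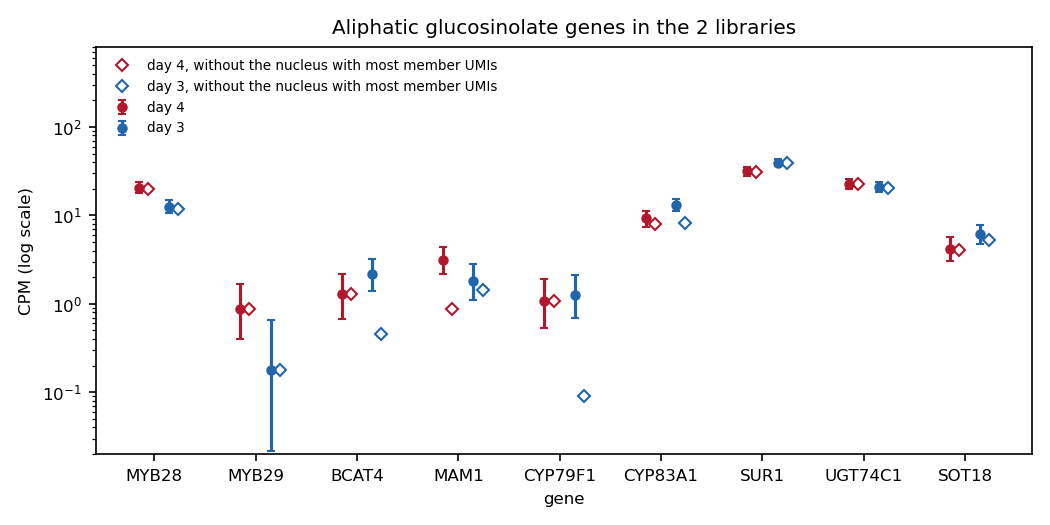
Level of each member in CPM on a log axis at day 4 (red) and day 3 (blue), with filled points for all nuclei, bars for exact 95% Poisson intervals and open diamonds for the level without the nucleus with the most member UMIs. MYB28 sits at 20.6 CPM at day 4 and 12.5 CPM at day 3, whereas the day 3 levels of BCAT4 and CYP79F1 drop to 0.452 and 0.0904 CPM once that nucleus is left out.

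The members were concentrated in few nuclei. At least 1 member UMI was found in 538 of 4545 nuclei (11.8%) at day 4 and in 616 of 4397 (14.0%) at day 3, yet 10 nuclei held 18.9% of all member UMIs at day 4 and 20.2% at day 3. The day 4 nucleus with the most had 50 member UMIs, 5.19% of the library's, among 15714 UMIs. MAM1 gave 23 of them, CYP83A1 13 and MYB28 7. Its doublet score was at percentile 99.6 of its library. The day 3 nucleus with the most had 121 member UMIs, 11.2% of the library's, among 16100 UMIs, and its doublet score was at percentile 59.8. It held 8 of the 9 members, with 55 UMIs of CYP83A1, 19 of BCAT4, 13 of CYP79F1 and 9 each of UGT74C1 and SOT18. BCAT4 and CYP79F1 at day 3 therefore rest on this nucleus, with 79.2% and 92.9% of their UMIs in it.

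Nuclei of ordinary depth also held several members, in differing combinations. A day 4 nucleus with 2550 UMIs held 9 UMIs of MYB28, 5 of CYP83A1, 4 of MAM1, 3 of CYP79F1 and 2 of SUR1. A day 4 nucleus with 2345 UMIs held 4 UMIs of CYP79F1, 3 of CYP83A1 and 2 of BCAT4. At day 3, a nucleus with 1823 UMIs held 11 UMIs of MAM1 and 4 further members. These nuclei lay in S phase-like clusters at day 4 and in a procambium-like cluster at day 3.

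**Figure D2:**
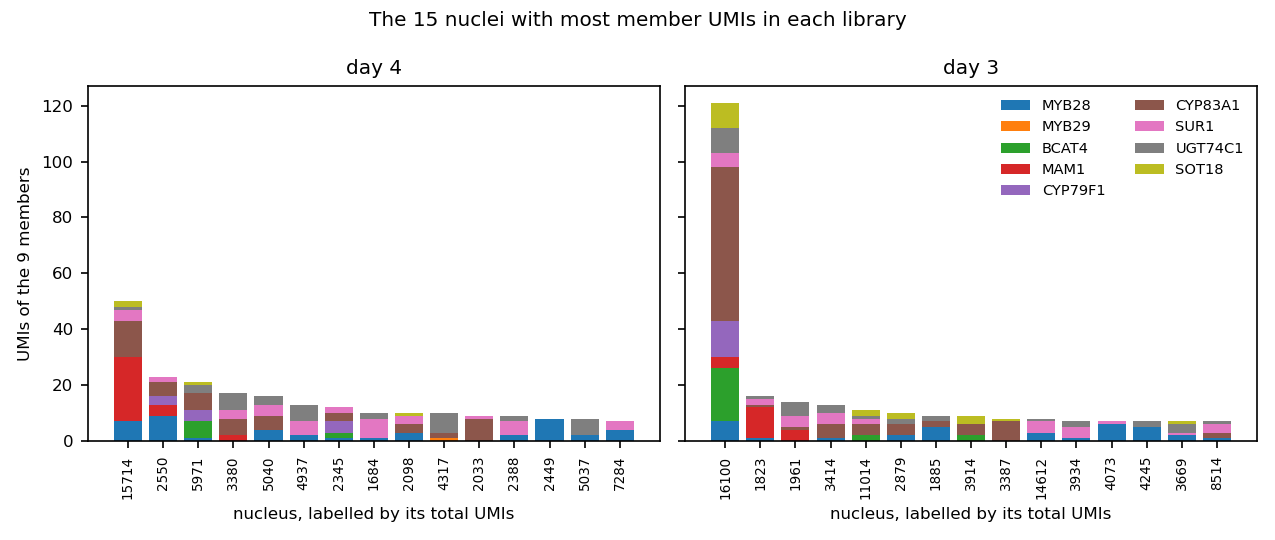
UMIs of the 9 members in the 15 nuclei of each library that hold the most, stacked by gene, with day 4 on the left and day 3 on the right and each nucleus labelled by its total UMIs. The day 3 nucleus with 16100 UMIs stands far above the rest with 121 member UMIs, whereas the highest day 4 nucleus has 50 and the next 23.

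Clusters were named from marker lists and were made without any gene of the pathway, so that the members did not shape them. A day 3 cluster of 60 nuclei with 134 CPM of summed members stayed unnamed and counted among the other nuclei. With both libraries clustered together, all of it lay in the same cluster as all day 4 phloem-like nuclei. The vascular clusters thus included phloem-like nuclei by name at day 4 only. By name they were procambium- and phloem-like at day 4, with 887 nuclei, and procambium- and xylem-like at day 3, with 885. The day 4 procambium-like cluster of 771 nuclei also passed 8 of 10 xylem markers. With both libraries clustered together, 86.3% of it lay in a xylem-like cluster with 91.8% of the day 3 xylem-like nuclei. In the vascular clusters the summed members reached 147 CPM at day 4, against 80.4 CPM in the other nuclei of that library. At day 3 they reached 219.8 CPM, against 64.7 CPM. The folds were 1.83 (1.60 to 2.10) at day 4 and 3.40 (3.01 to 3.83) at day 3. Without the nucleus with the most member UMIs they were 1.55 at day 4 and 2.62 at day 3, and with a minimum of 500 genes per nucleus the day 3 fold was 1.25. A gene passed here if it was at least 2-fold higher with 10 CPM added to both levels. Of the 4 members with at least 200 UMIs, 1 (MYB28) passed in vascular clusters at day 4, beside 3.27% of 14740 genes. At day 3, 2 passed (MYB28 and CYP83A1), beside 3.11%. With joint clusters MYB28 at day 4 (1.57 without added CPM) no longer passed this fold, and neither did CYP83A1 at day 3, as given below. In cortex-like and mesophyll-like clusters of day 4, 0 of the 4 passed this fold with 10 CPM added to both levels, beside 2.66% of genes.

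MYB28 was higher in vascular clusters on both days, by an amount that changed with the clustering. At day 4 it reached 43.7 CPM in vascular clusters, against 14.5 CPM elsewhere, a fold of 3.01 (2.27 to 3.99). At day 3 it reached 43.7 CPM, against 4.13 CPM elsewhere, a fold of 10.6 (7.19 to 16.0). With both libraries clustered together the fold was 1.57 (1.13 to 2.14) at day 4, against 5.03 (3.55 to 7.12) at day 3. Without the 8% highest doublet scores it was 1.37 (0.9496 to 1.95) at day 4, an interval that includes 1, and 6.68 at day 3. With a minimum of 500 genes it was 1.97 at day 4 and 3.11 at day 3. At day 4, 6.09% of vascular nuclei had a MYB28 UMI, against 0.662% of floral meristem-like nuclei, at median depths of 1825 and 1740 UMIs. At day 3 the share was 7.01%, against 0.571% of epidermis-like nuclei, at median depths of 1870 and 1800 UMIs. Over all nuclei it was 2.64% at day 4 and 2.05% at day 3. In cortex-like and mesophyll-like clusters of day 4, 33 of 1190 nuclei had a MYB28 UMI. After thinning every nucleus to 1000 UMIs, 3.49% (2.39 to 4.92) of vascular nuclei at day 4 and 4.18% (2.96 to 5.72) at day 3 had a MYB28 UMI. The thinned shares of all nuclei were 1.50% (1.16 to 1.89) at day 4 and 1.11% (0.826 to 1.47) at day 3.

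Among the enzymes, BCAT4, MAM1 and CYP79F1 had all of their 24, 20 and 14 day 3 UMIs in vascular clusters. This placement turned when both libraries were clustered together, since 21 of the 24 BCAT4 UMIs, 19 of the 20 MAM1 UMIs and 13 of the 14 CYP79F1 UMIs then lay in a cortex-like cluster. Without the nucleus with the most member UMIs that cluster held 2 UMIs of BCAT4, 15 of MAM1 and 0 of CYP79F1. For BCAT4 and CYP79F1 the turn thus rests mostly on 1 nucleus. At day 4 the same genes were scattered. MAM1 had 26 of its 32 UMIs in vascular clusters, 23 of them in 1 nucleus. BCAT4 had 8 of 13 in epidermis-like clusters, and CYP79F1 had 7 of 11 in S phase-like and 4 in epidermis-like clusters, in 3 nuclei in all.

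CYP83A1 reached 15.0 CPM in vascular clusters at day 4, against 7.68 CPM elsewhere, and 48.8 CPM at day 3, against 3.55 CPM. Without the nucleus with the most member UMIs its vascular fold was 1.17 (0.661 to 1.98) at day 4, against 7.22 (4.60 to 11.5) at day 3. The direction turned at day 4 with nuclei thinned to 1000 UMIs (0.665, 0.202 to 1.73) and at day 3 with joint clusters (0.905, 0.547 to 1.43), so no vascular preference of CYP83A1 is stated. SUR1 showed little preference, with 42.7 CPM in vascular clusters and 28.4 CPM elsewhere at day 4, and 48.4 CPM in vascular clusters and 37.0 CPM elsewhere at day 3. At day 4, 7.10% of vascular nuclei and 3.97% of floral meristem-like nuclei had a SUR1 UMI. Day 3 barcodes with 1 to 100 UMIs, which hold mostly free RNA, had SUR1 at 52.1 CPM and UGT74C1 at 21.8 CPM, levels like those of the nuclei, and the part of free RNA in their wide spread was not tested. UGT74C1 reached 39.5 CPM in vascular clusters at day 3, against 16.0 CPM elsewhere, but at day 4 it had 23.0 CPM in vascular clusters, against 22.5 CPM. At day 4 UGT74C1 was instead higher in cortex-like and mesophyll-like clusters, with 39.4 CPM against 17.6 CPM and a fold of 2.24 (1.70 to 2.94). SOT18 had 7.04 CPM in vascular clusters at day 4, against 3.47 CPM, and 14.4 CPM at day 3, against 3.90 CPM.

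The cortex-like cluster of day 4 had 127 CPM of summed members, whereas the mesophyll-like cluster had 73.2 CPM. Pooled, they had 122 CPM against 86.1 CPM in the other nuclei, a fold of 1.42 (1.23 to 1.63). This is close to the 125 CPM of the day 4 vascular clusters without the nucleus with the most member UMIs. No cluster of day 3 was named cortex or mesophyll.

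The remaining named tissues held less. The summed members stood at 36.1 CPM in floral meristem-like clusters of day 4, against 98.1 CPM in the other nuclei, with 22 UMIs of which 12 were SUR1. No cluster of day 3 met the naming rule for floral meristem. G2/M-like clusters had 58.5 CPM at day 4, against 103 CPM, and 50.8 CPM at day 3, against 103 CPM. S phase-like clusters had 79.6 CPM at day 4, against 96.3 CPM, and 46.5 CPM at day 3, against 104 CPM. Epidermis-like clusters had 68.7 CPM at day 4, against 100.5 CPM, and 39.0 CPM at day 3, against 105 CPM. The 2 day 4 clusters of this name differed: 1 with CER4, CER6 and CYP96A15 (wax synthesis genes) among its leading genes had 105 CPM, and the other had 38.6 CPM.

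**Figure D3:**
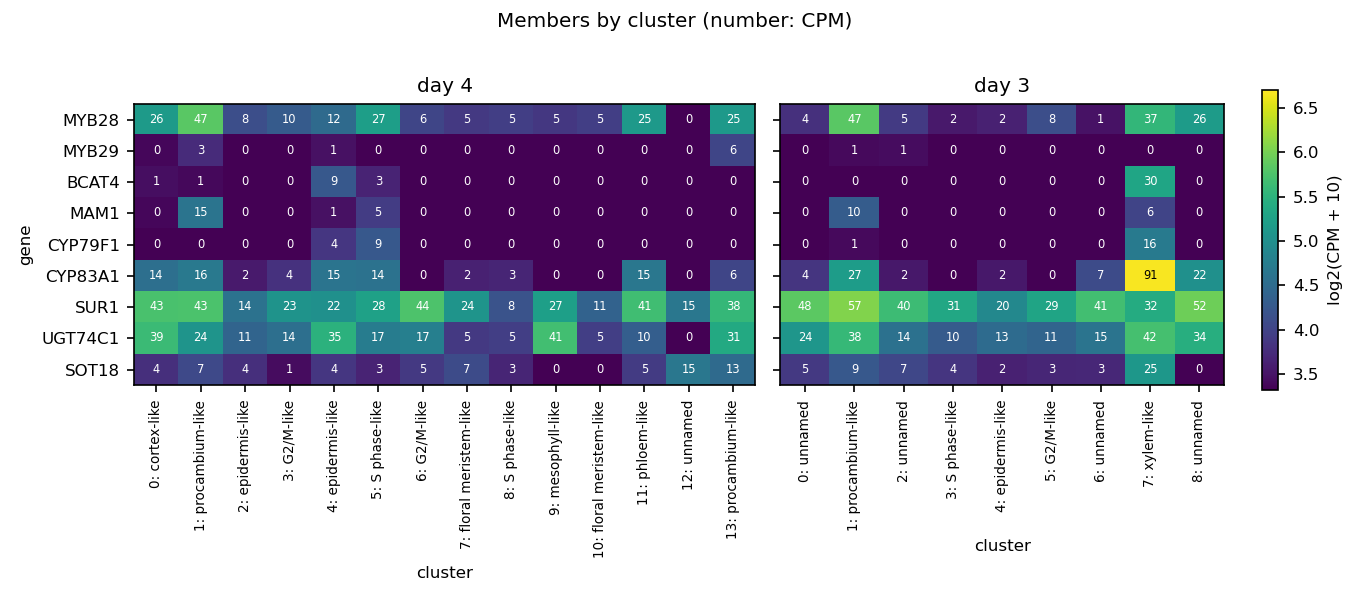
CPM of each member (printed in the cells, with colour on a log2 scale after adding 10 CPM) in the 14 clusters of day 4 and the 9 clusters of day 3. MYB28 is highest in the procambium-like cluster 1 of both days, at 47.4 CPM at day 4 and 47.2 CPM at day 3, and CYP83A1 is highest in the xylem-like cluster of day 3 at 91.3 CPM, of which 55 of 74 UMIs come from 1 nucleus.

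The tissue assignment depended on how nuclei were clustered. When both libraries were clustered together, 211 of the 641 nuclei (32.9%) of the day 3 procambium-like cluster fell into a cortex-like cluster and 294 into a xylem-like one. The summed vascular fold was then 1.51 at day 4 and 1.56 at day 3. The joint cortex-like cluster had 153 CPM of summed members at day 4, against 77.8 CPM in the other nuclei, and 218 CPM at day 3, against 74.8 CPM, or 151 CPM without the nucleus with the most member UMIs. CYP83A1 in that cluster had 19.1 CPM at day 4, against 6.42 CPM, and 58.3 CPM at day 3, against 4.62 CPM, or 27.4 CPM without that nucleus. MYB28 in the joint xylem-like cluster had 30.8 CPM at day 4 and 41.1 CPM at day 3, and in the joint cortex-like cluster 40.3 CPM at day 4 and 24.3 CPM at day 3, a ratio of 1.66 (1.14 to 2.44). Another difference lay in a joint S phase-like cluster, where MYB28 had 21 UMIs at day 4 and 1 at day 3. On each day, with all nuclei, the cluster with the highest summed level was vascular when libraries were clustered alone and cortex-like when they were clustered together. At day 4 this rests largely on 1 nucleus. Without the nucleus with the most member UMIs, the vascular clusters of day 4 alone had 125 CPM, beside 122 CPM in cortex-like and mesophyll-like ones.

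Some members were found together in the same nuclei more often than independent genes would be. Each nucleus was thinned to 1000 UMIs for this, and all 36 pairs were computed. Of these, 19 met in at least 1 nucleus at day 4 and 14 at day 3. The interval of the ratio of observed over expected nuclei lay above 1 for 14 pairs at day 4 and 10 at day 3, and below 1 for 0 on either day. The 0 carries no information. The largest expected number was 2.69 nuclei (SUR1 and UGT74C1 at day 3), too few for an interval below 1 even with 0 nuclei observed. Pairs share members and several rest on 1 nucleus. MYB28 and CYP83A1 met in 5 nuclei at day 4, where 0.314 were expected, a ratio of 15.9 (5.17 to 37.1), and in 5 nuclei at day 3, where 0.290 were expected, a ratio of 17.3 (5.60 to 40.3). Unthinned, they met in 16 nuclei at day 4 and 12 at day 3, with ratios of 13.8 at day 4 and 10.9 at day 3. Regulator and P450 enzyme therefore shared nuclei on both days.

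The widely detected enzymes did so less strongly. MYB28 and UGT74C1 had a ratio of 5.38 (2.16 to 11.1) at day 4 and 5.61 (1.82 to 13.1) at day 3, and MYB28 and SUR1 had 4.29 (1.73 to 8.84) at day 4, against 3.03 (0.984 to 7.07) at day 3. SUR1 and UGT74C1 had 3.83 (1.66 to 7.55) at day 4, against 4.08 (2.04 to 7.31) at day 3. Within vascular clusters the interval lay above 1 for 4 of the 36 pairs at day 4 and 8 at day 3. There MYB28 and CYP83A1 met in 1 nucleus at day 4, a ratio of 7.15 (0.181 to 39.9), and in 4 nuclei at day 3, a ratio of 5.63 (1.53 to 14.4). MYB28 and UGT74C1 met there in 4 nuclei on each day, with a ratio of 6.36 (1.73 to 16.3) at day 4 and 3.54 (0.965 to 9.07) at day 3.

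The nuclei with a MYB28 UMI, 120 at day 4 and 90 at day 3, were compared with all others. They were somewhat deeper, with a median of 2300.5 UMIs against 1792 at day 4 and 2181 against 1837 at day 3. CYP83A1 had 132 CPM in MYB28 nuclei at day 4, against 4.48 CPM in the others, a fold of 29.4 (19.2 to 45.2), and 221 CPM at day 3, against 6.52 CPM, a fold of 33.9 (24.2 to 47.6). Without the nucleus with the most member UMIs these folds were 22.7 at day 4 and 9.82 at day 3. CYP79F1 had 11 of its 11 UMIs in MYB28 nuclei at day 4 and 13 of 14 at day 3, where all 13 lay in 1 nucleus.

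The later enzymes were also higher in MYB28 nuclei. SUR1 was 5.73-fold (4.24 to 7.65) higher at day 4 and 3.41-fold (2.43 to 4.67) at day 3, and UGT74C1 6.97-fold (4.98 to 9.61) at day 4 and 7.27-fold (5.11 to 10.1) at day 3. SOT18 was 6.86-fold higher at day 4 and 8.83-fold at day 3, from 9 UMIs at day 4 and 15 at day 3. Of the genes that are not members, GSTU20, a glutathione transferase of the core, was 7.33-fold higher at day 4 and 7.44-fold at day 3. AOP3, a dioxygenase that modifies the side chain in Ler, was 15.7-fold higher at day 4 and 10.6-fold at day 3. The day 3 folds without the nucleus with the most member UMIs were 3.71 for SOT18, 4.44 for GSTU20 and 5.09 for AOP3. MYC2 differed less, at 1.29-fold (0.801 to 1.98) at day 4 and 2.03-fold (1.48 to 2.72) at day 3, where the interval lay above 1.

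Nuclei with at least 3 of the 9 members were rare. At 1000 UMIs per nucleus there were 8 of 4545 at day 4, or 0.176% (0.0760 to 0.347), and 10 of 4397 at day 3, or 0.227% (0.109 to 0.418). Over 20 draws to that depth the number ranged from 5 up to 11 at day 4, with a median of 8. At day 3 it ranged from 3 up to 10, with a median of 6, so the 10 given here is the highest value of any draw. The days are not told apart. Unthinned there were 23 (0.506%) at day 4 and 27 (0.614%) at day 3, which were deeper than the rest, with medians of 3089 UMIs against 1800 at day 4 and 3934 against 1838 at day 3. Of these, 11 at day 4 and 20 at day 3 lay in vascular clusters, and 6 at day 4 lay in cortex-like or mesophyll-like clusters.

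These nuclei were chosen by the members, so the other genes of the pathway show what else they held. Of 44 detected pathway genes that are not members, 16 at day 4 and 23 at day 3 had at least 3 UMIs and an at least 2-fold higher level in the nuclei chosen at 1000 UMIs, beside 4.39% of 24099 detected genes at day 4 and 5.67% at day 3. In the unthinned choice it was 17 of 44 at day 4, beside 2.58% of genes, and 21 of 44 at day 3, beside 2.53%. Without the nucleus with the most member UMIs, chosen to be left out after its values were seen, the unthinned counts were 18 at day 4 and 19 at day 3, and the day 3 count at 1000 UMIs was 16. The share of pathway genes was thus several times the background on both days.

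By role, in the unthinned choice, the chain elongation list passed with 4 of 6 genes at day 4 and 5 of 6 at day 3. The core list passed with 7 of 8 at day 4 and 5 of 8 at day 3, and side chain modification with 2 of 7 at day 4 and 4 of 7 at day 3. Transport passed with 1 of 3 on each day, and the other regulators with 0 of 4 at day 4 and 1 of 4 (MYC2) at day 3.

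Several of these genes, named here after their values were seen, had a large share of their UMIs in such nuclei. BAT5, the plastid transporter of 2-keto acids in chain elongation, had 23 of its 26 UMIs in the 23 nuclei at day 4 and 11 of 14 in the 27 nuclei at day 3. IPMDH1, a dehydrogenase of the elongation cycle, had 15 of 23 at day 4 and 26 of 31 at day 3, and IPMI-SSU2, a small subunit of its isomerase, had 6 of 11 at day 4 and 38 of 52 at day 3. GSTF11, a glutathione transferase of the core, had 33 of 60 at day 4 and 13 of 27 at day 3. The day 3 nucleus with 16100 UMIs gave 15 of the 26 UMIs of IPMDH1 and 14 of the 38 of IPMI-SSU2.

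More abundant pathway genes gave folds with narrower intervals. GSTU20 was 12.0-fold (9.53 to 14.9) higher in these nuclei at day 4 and 13.2-fold (11.5 to 15.2) at day 3, or 7.72-fold at day 3 without that nucleus. FMO-GSOX3, which oxidises the sulphur of the side chain, was 25.3-fold (18.6 to 34.0) higher at day 4 and 16.3-fold (11.5 to 22.7) at day 3, and AOP3 20.0-fold (11.3 to 33.7) at day 4 and 17.1-fold (11.0 to 25.9) at day 3. Without the nucleus with the most member UMIs AOP3 was 11.6-fold higher at day 4 and 6.91-fold at day 3. UGT74B1, the other core glucosyltransferase, was 13.2-fold (9.38 to 18.1) higher at day 4 and 5.29-fold (3.78 to 7.23) at day 3. APK2, which supplies the sulphate donor, was 24.3-fold higher at day 4 and 8.59-fold at day 3, where without that nucleus it was 1.11-fold (0.133 to 4.10).

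Some genes of the lists were not clearly higher on both days in the nuclei with 3 or more members. IPMI-LSU1, the large subunit shared with leucine synthesis, was at 0.531-fold (0.172 to 1.24) at day 4 and 1.96-fold (1.33 to 2.78) at day 3. MYC3 was at 1.19-fold (0.633 to 2.05) at day 4 and 1.03-fold (0.633 to 1.58) at day 3.

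**Figure D4:**
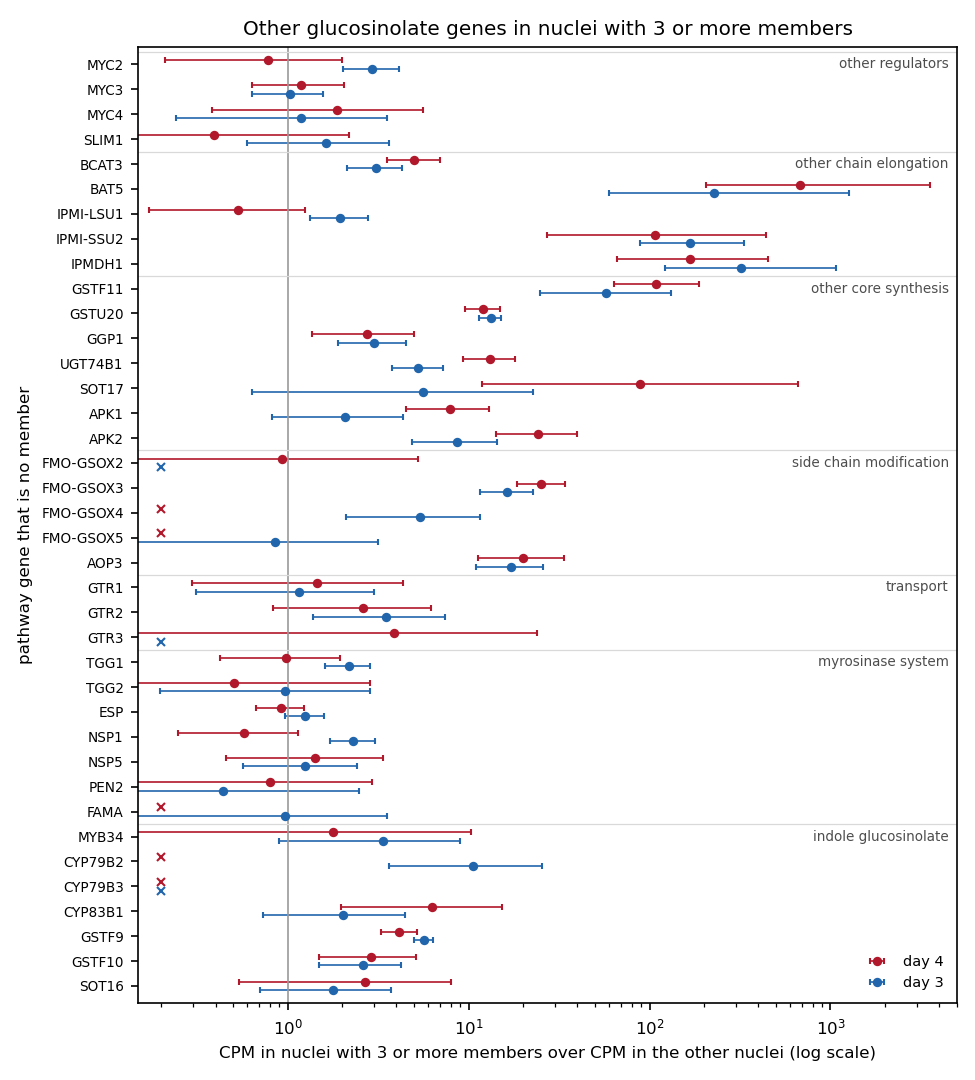
Fold of each pathway gene that is not a member (those with at least 30 UMIs over both libraries) in nuclei with 3 or more members over the other nuclei, unthinned, on a log axis, for day 4 (red) and day 3 (blue) with exact 95% intervals and crosses for 0 UMIs. Chain elongation and core genes such as GSTU20 (12.0 at day 4 and 13.2 at day 3) lie right of 1, apart from IPMI-LSU1 at day 4 (0.531). ESP of the myrosinase system (0.919 at day 4 and 1.25 at day 3) lies near 1.

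Of the genes that break glucosinolates down, 0 of 8 of the myrosinase system passed in the unthinned choice at day 4 and 2 of 8 (TGG1 and NSP1) at day 3. TGG1, a myrosinase of guard cells and phloem idioblasts, was at 0.979-fold (0.421 to 1.94) in the nuclei with 3 or more members at day 4 and 2.18-fold (1.62 to 2.87) at day 3. NSP1, a nitrile-specifier protein, was at 0.577-fold (0.248 to 1.14) at day 4 and 2.31-fold (1.71 to 3.06) at day 3, or 0.913-fold (0.296 to 2.14) at day 3 in the nuclei chosen at 1000 UMIs. ESP, which directs the breakdown to nitriles, was at 0.919-fold (0.672 to 1.23) at day 4 and 1.25-fold (0.965 to 1.59) at day 3. In vascular clusters ESP had 199.6 CPM at day 4, against 505 CPM elsewhere, and 157 CPM at day 3, against 345 CPM, the opposite of MYB28.

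Markers of tissues were also read in these nuclei without any clustering. The 8 procambium markers summed to 1490.0 CPM in nuclei with 3 or more members at day 4, against 1029.6 CPM in the rest, and 1509 CPM at day 3, against 846 CPM, with 1 of the markers at least 2-fold higher (10 CPM added) at day 4 and 3 at day 3. The 10 phloem markers summed to 573 CPM against 299 CPM at day 4 and 480.5 CPM against 264 CPM at day 3, with 2 of them at least 2-fold higher on each day, and 2 at 0 UMIs in these nuclei at day 4 and 3 at day 3. The 10 xylem markers were at 194 CPM against 213 CPM at day 4, with 6 at 0, and 220.4 CPM against 204 CPM at day 3.

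Cortex markers had 749 CPM against 833 CPM at day 4 and 803 CPM against 880.5 CPM at day 3, and 0 of 8 were at least 2-fold higher on either day. Mesophyll markers differed between the days, with 1428 CPM against 1677 CPM at day 4 and 2832 CPM against 1671 CPM at day 3. The 13 G2/M markers were low, with 1173 CPM against 3220.0 CPM at day 4 and 955 CPM against 4492 CPM at day 3. S phase markers had 1993 CPM against 2067 CPM at day 4 and 1848 CPM against 2817 CPM at day 3. Epidermis markers had 2795 CPM against 3461 CPM at day 4 and 2470.2 CPM against 3920.0 CPM at day 3. Floral meristem markers had 432 CPM against 514 CPM at day 4 and 367 CPM against 775 CPM at day 3. Their part in the member levels was not tested.

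The indole branch shares SUR1 with the members but makes glucosinolates from tryptophan. Of its 8 detected genes on the list, 7 were lower at day 4 than at day 3, beside 41.7% of all 24099 detected genes, with a median log2 ratio of -0.94, against -0.12 over the 9 aliphatic members. CYP83B1, its counterpart of CYP83A1, had 76 UMIs at day 4 and 189 at day 3, and SOT16, its counterpart of SOT18, had 103 at day 4 and 250 at day 3. CYP79B2 and CYP79B3, named after their values were seen, had 5 UMIs (CYP79B2) and 6 (CYP79B3) at day 4, against 41 and 40 at day 3. GSTF9, a glutathione transferase on the indole list, had 1845 UMIs at day 4 and 3502 at day 3, of which 173 came from the day 3 nucleus with 16100 UMIs. GSTF10, another one on that list, differed little between the days. Outside the nuclei with 3 or more members (unthinned) it had 36.5 CPM at day 4 and 37.0 CPM at day 3. In the nuclei with 3 or more members 3 of 8 indole genes passed on each day, among them GSTF9 at 4.14-fold (3.27 to 5.16) at day 4 and 5.65-fold (5.00 to 6.37) at day 3. Without the nucleus with the most member UMIs, 4 passed at day 4 and 2 at day 3, and GSTF9 was at 2.56-fold (2.12 to 3.07) at day 3. All 6 UMIs of CYP79B2 in the day 3 nuclei came from that nucleus.

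The medians of the other lists lay nearer to 0. The other chain elongation genes had a median log2 ratio of -0.20 over 6 detected, the other core genes -0.36 over 8, side chain modification 0.13 over 7 and the myrosinase system -0.04 over 8. Within them, GSTU20 had 766 UMIs at day 4 and 1398 at day 3, and TGG1 had 735 at day 4 and 1524 at day 3, of which 276 came from 1 day 3 nucleus. ESP had 4499 UMIs at day 4 and 3377 at day 3.

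Over the 23 clusters of both libraries, the gene most like the summed members was GAD2, a glutamate decarboxylase, with a Pearson r of 0.91 between log2 levels after adding 10 CPM, among 14736 genes. AILP1 (0.84), IAA9 (0.83), an auxin response repressor, AT1G09845 (0.83) and ZPR2 (0.83) followed, and then AT2G38180, AT2G28660, RABA6a, BRH1 and CB5-C, the last at 0.81. Clusters of 1 library share its depth and free RNA, so these values are descriptions. Each member set against the sum of the others gave 0.79 for CYP83A1, 0.73 for MYB28, 0.70 for UGT74C1, 0.61 for MAM1 and 0.57 for SUR1. BCAT4 (0.50), CYP79F1 (0.49), MYB29 (0.34) and SOT18 (0.30) were less alike, and these are the members with the fewest UMIs apart from MAM1.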

How the data were processed

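Nuclei of induced pAP1:AP1-GR ap1-1 cal-1 inflorescences were profiled in 1 library at day 4 and 1 at day 3. The authors made Chromium libraries from sorted nuclei and counted with Cell Ranger 3.1.0 against Araport11, whose gene models lie on the TAIR10 assembly of Col-0, and they deposited UMI counts for each gene and barcode as counted, with no stated removal of doublets or free RNA. The day 4 file held called nuclei and the day 3 file all barcodes. Gene matches used the AGI identifiers, and AOP2 was not used here.

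Barcodes with at least 1000 nuclear genes were kept, as in the study's methods, and depth was 10202530 UMIs at day 4 and 11083512 at day 3. Counts were summed per library, cluster or set of nuclei and given as CPM, with exact Poisson intervals, and shares had exact Clopper-Pearson intervals. Log2 ratios of the libraries used a pseudocount of 1 CPM and clusters one of 10 CPM. Nuclei are not replicates and each day is 1 library, so nothing was tested. For shares, nuclei were thinned to 1000 UMIs, which left out none. Scripts were tested on simulated data. Tools were Python 3.11.15, scipy 1.17.1, scanpy 1.11.5 (Scrublet scores), R 4.3.3 and edgeR 4.0.16 (TMM factors only).

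Clustering used Seurat 5.3.0, sctransform 0.4.2 and uwot 0.2.3 with 3000 variable genes, 9 components, 50 neighbours and a resolution of 0.04, with pathway genes left out of the variable genes. A cluster was named when at least 3 markers of a list were 2-fold higher than in the library's other nuclei, after the list with the highest share of such markers. It stayed unnamed where its top 10 genes held more markers of another class than of its own, or none of its own while fewer markers passed than failed. Names rest on these lists and may differ from the study's. Doublets were kept, since Scrublet called 1080 nuclei at day 4 and 0 at day 3, and leaving out the 8% highest scores was an alternative.

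Genes named are the 9 members, pathway genes with at least 200 UMIs over both libraries or near 0, and the 10 genes most like the summed members over clusters, with exceptions stated in the text. The members and lists were chosen with earlier results of these data known. Alternatives changed the gene minimum (500 or 1500), scaling, pseudocount, doublets, depth, clustering and number of members per nucleus. Leaving out the nucleus with the most member UMIs, or nuclei over 10000 UMIs, was added after seeing the data.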

Additional observations from a re-analysis of the deposited data

Results flagged for a closer look

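Day 3 barcodes with 1 to 100 UMIs are not nuclei kept in any comparison, and they held 1190047 UMIs in 562367 barcodes. In them 5 members lay above the limit that a count of 0 allows, which is 2.52 CPM for 3 counts. SUR1 had 52.1 CPM (62 UMIs), UGT74C1 21.8 CPM (26 UMIs), MYB28 17.6 CPM (21 UMIs), CYP83A1 7.56 CPM (9 UMIs) and SOT18 4.20 CPM (5 UMIs). The kept day 3 nuclei had 39.4 CPM of SUR1, 21.0 CPM of UGT74C1, 12.5 CPM of MYB28, 13.2 CPM of CYP83A1 and 6.14 CPM of SOT18. The day 4 file held called nuclei alone, so the same values are not given for day 4.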

How the results depend on the processing

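With 1 library per day and few UMIs per member, depth limits every value, and the results that rest on tissue names were the least stable. The log2 ratio of the summed members was -0.21 without the 8% highest doublet scores, -0.14 with TMM factors and -0.15 with median-of-ratios factors, whose intervals exclude 0, against -0.05 with all nuclei and totals, whose interval includes 0. The summed vascular fold at day 4, 1.83 with all nuclei, was 1.55 with a minimum of 500 genes, 1.27 without the highest doublet scores, 1.55 without the nucleus with most member UMIs and 1.51 with joint clusters. At day 3, where it was 3.40, it was 1.25 with 500 genes, 2.83 with nuclei thinned to 1000 UMIs, 2.62 without that nucleus and 1.56 with joint clusters. The CYP83A1 vascular fold turned to 0.602 without the highest doublet scores and 0.665 thinned at day 4, and to 0.790 with 500 genes and 0.905 with joint clusters at day 3. The share of nuclei with 3 or more members at 1000 UMIs was 0.176% at day 4 and 0.227% at day 3, the day 3 share being the highest of 20 draws. Unthinned the share was 0.506% at day 4 and 0.614% at day 3. With at least 2 members at 1000 UMIs it was 0.550% at day 4 and 0.591% at day 3, and with at least 4 members 0.0660% at day 4 and 0.0682% at day 3. With at least 4 members the other pathway genes higher in such nuclei numbered 4 at day 4 and 12 at day 3, from 3 nuclei on each day. The cause of these shifts was not tested, apart from the fewer nuclei. Of the other values, 105 stayed within their counting error and 20 moved beyond it with their direction not counted as turned, MYB28's log2 ratio being 1.07 with 1500 genes, and all 24 co-detection values kept within it. The median log2 ratio of all genes was 0.08 with totals, -0.00 with TMM factors and -0.02 with median-of-ratios factors. The log2 ratio of UGT74C1 itself was 0.10, 0.02 and 0.00 with the same scalings. No paired analysis was possible because each day is 1 library.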

Other observations

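The day 3 nucleus with the most member UMIs ranked 21 in depth among 4397 nuclei, with 16100 UMIs and 6155 genes, and its members came to 7516 CPM, against 97.7 CPM over the library. Besides 8 members it held UMIs of 28 of the 47 other pathway genes, with 173 UMIs of GSTF9, 116 of GSTU20, 19 of AOP3 and 15 each of IPMDH1 and APK2. The day 4 nucleus with the most member UMIs ranked 5 in depth, with 15714 UMIs and 7292 genes, and held UMIs of 15 of those 47 genes.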
